A study of Mus musculus with 9 samples.

Results

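The genes described here encode axon guidance ligands and receptors, and were followed in retinal organoids, layered eye tissue formed by mouse ES or iPS cells that reaggregate in floating culture. They were chosen by gene name on the array and comprise the semaphorins of classes 3 to 7, their plexin and neuropilin receptors, ephrins and Eph receptors, netrins and netrin-Gs with Dcc and the Unc5 receptors, and Slits with Robo receptors. The names matched 73 genes with 179 probes. For 67 of them a probe read well above background on 3 or more of the 9 arrays, among 23428 genes tested in all. Of the 67, 60 were well above background on all 9 arrays, and each gene was read from its brightest probe. No such probe was found for Robo4, Unc5d, Ntn5, Ntn1 and the antisense RNAs Plxna4os1 and Plxna4os2.

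Guidance ligands are secreted or held on cell surfaces and steer growing axons through receptors on the growth cone. Class 3 semaphorins act through neuropilins paired with plexins, most other semaphorins bind plexins directly, ephrins signal through Eph receptors, netrins attract through Dcc and repel through Unc5 receptors, and Slits repel through Robo receptors. In the retina these systems are known for leading ganglion cell axons to the optic nerve and the brain, for the map that ephrins set up along the eye's axes, and for the layering of the inner plexiform layer by transmembrane semaphorins and plexins.

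RNA came from 3 lines. These were wild type organoids (WT, named NCT by the submitters), a line with a knockout of Bhlhb4 (B4KO; the gene is now called Bhlhe23) and a line with a knockout of Islet-1 (Isl1KO), both intended to give organoids with fewer bipolar cells. Each line was sampled on differentiation days 10, 16 and 23 (DD10, DD16 and DD23). Every sample pooled 5 organoids and was hybridised to 1 array, so each line and day rests on a single measurement; whether lines are single clones was not stated in the sources used. Between 57.3% and 67.8% of the 59305 gene spots per array were well above background and none was saturated. All 3 B4KO arrays lay on 1 slide and the 6 WT and Isl1KO arrays on another, so B4KO and slide cannot be told apart, nor can day and array column. All 12 retinal progenitor markers listed were well above background on every array, and all 13 photoreceptor markers measured were so by DD23. Both Isl1 probes stayed well above background in Isl1KO. In log2 levels as defined below, 1 of them read -1.24, -0.44 and -1.63 there at DD10, DD16 and DD23, against -0.60, 1.45 and -0.05 in WT. The other read -0.88, 0.10 and -0.92 against -1.25, 0.85 and -0.66. Bhlhe23 was well above background on 3 WT, 1 B4KO and 2 Isl1KO arrays. It read -3.20, -2.82 and -4.55 in WT, -3.41, -4.88 and -6.64 in B4KO and -2.95, -4.55 and -6.56 in Isl1KO. Where the deletions lie was not stated in the labels, and probes that miss the deleted stretch check nothing.

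Levels below are log2 intensities relative to the 75th percentile of the same array, so 0 is that percentile and 1 unit is a doubling. Differences and standard errors (SE) come from a limma model with line and day as additive terms over the 9 arrays, with adjusted p-values over all 23428 genes and a threshold of 0.05. The spread is then the departure from additivity (4 residual degrees of freedom), not the spread between replicates. In pooled organoids, fewer cells of a type and less RNA per cell cannot be told apart.

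For 5 genes that carry the changes described below, the 250 bases before the RefSeq transcription start are shown, 5' to 3' on the gene's strand in build GRCm38.p6, with CpG dinucleotides in capitals. Epha8 had the largest rise of the set, Plxna2 rose late, and Unc5b and Epha4 had the largest falls. Sema3a also fell, and had the set's largest difference of Isl1KO from WT, which did not pass the threshold (limma, adjusted p = 0.451). The windows are chr4:136956817-136957066 for Epha8, chr1:194619579-194619828 for Plxna2, chr10:60831582-60831831 for Unc5b, chr1:77515089-77515338 for Epha4 and chr5:13396534-13396783 for Sema3a.
Epha8: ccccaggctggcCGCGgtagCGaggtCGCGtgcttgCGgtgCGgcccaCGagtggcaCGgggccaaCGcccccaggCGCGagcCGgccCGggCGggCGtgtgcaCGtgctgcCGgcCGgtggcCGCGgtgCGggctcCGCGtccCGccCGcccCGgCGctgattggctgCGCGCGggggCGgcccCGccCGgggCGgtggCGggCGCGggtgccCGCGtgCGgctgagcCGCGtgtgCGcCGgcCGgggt
Plxna2: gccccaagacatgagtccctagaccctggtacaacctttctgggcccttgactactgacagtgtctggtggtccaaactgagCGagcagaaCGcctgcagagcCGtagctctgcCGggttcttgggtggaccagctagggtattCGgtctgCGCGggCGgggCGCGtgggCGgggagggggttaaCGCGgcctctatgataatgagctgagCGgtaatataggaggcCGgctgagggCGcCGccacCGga
Unc5b: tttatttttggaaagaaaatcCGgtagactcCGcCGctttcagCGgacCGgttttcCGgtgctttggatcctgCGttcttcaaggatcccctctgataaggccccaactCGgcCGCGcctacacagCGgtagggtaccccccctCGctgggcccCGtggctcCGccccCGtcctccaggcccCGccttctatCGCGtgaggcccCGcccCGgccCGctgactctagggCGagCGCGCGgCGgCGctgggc
Epha4: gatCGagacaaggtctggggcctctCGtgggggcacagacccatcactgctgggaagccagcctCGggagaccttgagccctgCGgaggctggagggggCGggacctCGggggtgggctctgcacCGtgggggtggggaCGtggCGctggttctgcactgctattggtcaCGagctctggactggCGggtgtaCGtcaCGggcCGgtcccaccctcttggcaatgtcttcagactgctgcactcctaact
Sema3a: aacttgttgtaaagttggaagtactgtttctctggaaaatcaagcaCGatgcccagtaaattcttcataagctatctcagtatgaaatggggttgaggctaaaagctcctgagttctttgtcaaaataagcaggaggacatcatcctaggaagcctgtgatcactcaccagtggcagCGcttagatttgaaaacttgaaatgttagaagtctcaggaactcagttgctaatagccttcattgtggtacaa

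The window of Epha8 held 46 CpG and was 84.0% G or C, that of Unc5b 27 CpG, that of Plxna2 18 and that of Epha4 14, whereas that of Sema3a held 2 CpG and was 40.8% G or C. Over the 75 RefSeq entries of the 59 guidance genes found in the table, the median was 16 CpG and 64.4% G or C, against 6 CpG and 52.4% over all 32851 entries. The guidance genes had passed the background filter, whereas all entries were taken whether or not the gene did. Other genes that passed were not compared, here or for the shares below. The letters TAATCC, searched on both strands as a core of Crx and Otx2 binding sites, were in 1 of the 75 windows (1.33%) and in 6.25% of all windows. TAATTA, a core shared by many homeodomain factors, which reads the same on both strands, was in 3 of 75 (4.0%) and in 4.84% of all. Neither was in the 20 windows of genes that rose from DD10 to DD23 nor in the 26 of genes that fell, which says only that these letters are not there.

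**Figure D1:**
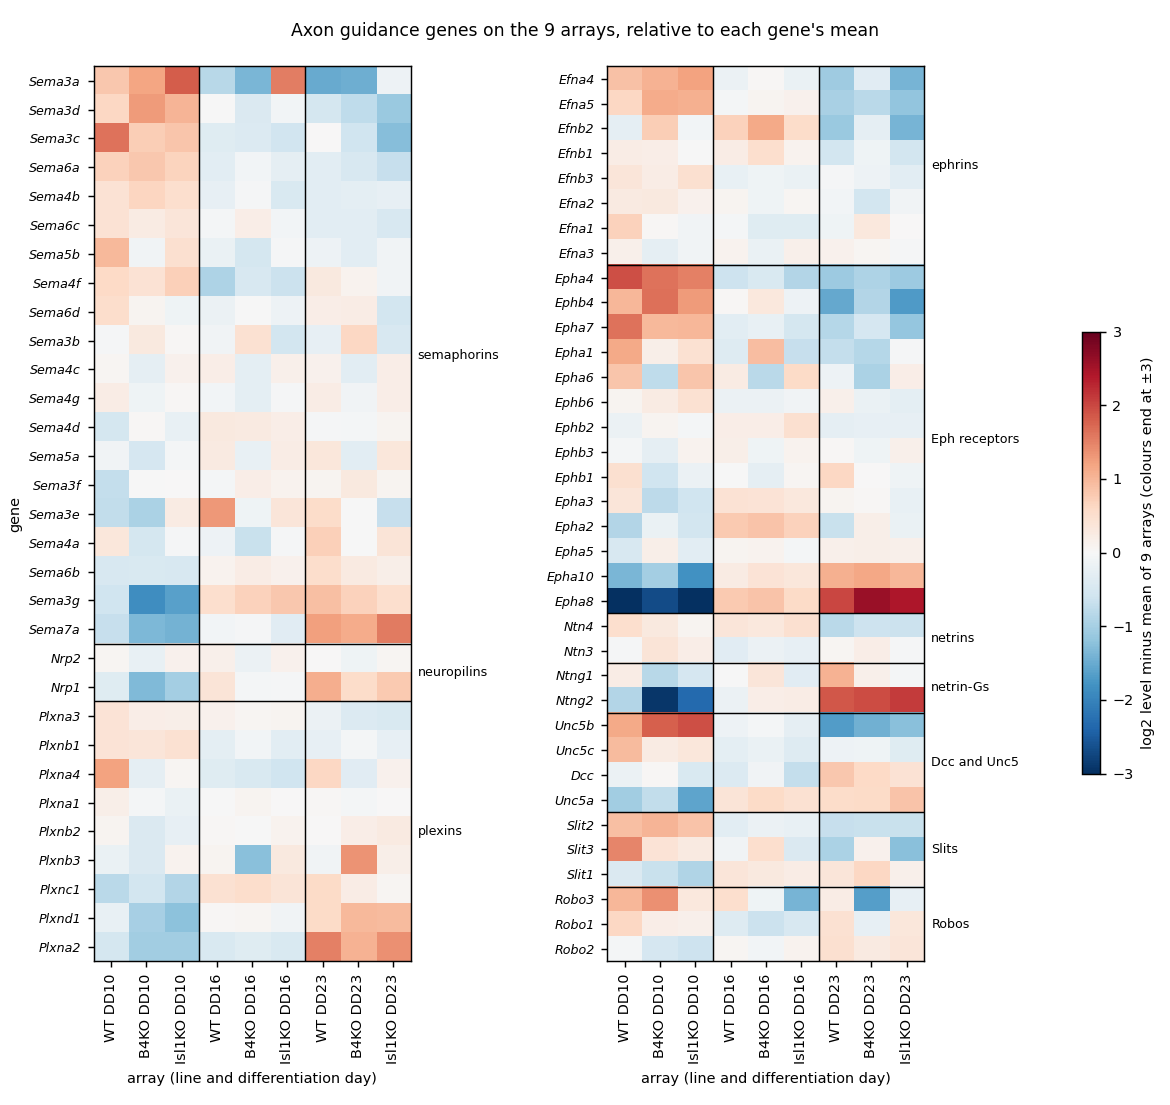
Log2 level of each of the 67 guidance genes (rows, by family) on the 9 arrays (columns, by day and line), minus the gene's mean over the 9 arrays; red is above that mean and blue below. Day separates the columns most: Epha8 and Ntng2 go from blue to red and Unc5b, Epha4 and Ephb4 from red to blue in all 3 lines.

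How the guidance genes changed as the organoids grew was asked by comparing days across the 3 lines. Between DD10 and DD16, 37 of the 67 guidance genes changed, 17 rising and 20 falling. Over all genes 40.8% passed in either direction, 21.9% upward and 18.9% downward. The median difference was -0.16 over the guidance genes and 0.03 over all. From DD16 to DD23, 25 changed (12 up, 13 down), against 41.3% of all genes (19.3% up, 22% down), with medians of 0.03 and 0.01. Over the whole interval from DD10 to DD23, 41 changed, 16 up and 25 down, against 60.7% of all genes (31.5% up and 29.2% down), with medians of -0.13 and 0.05. Of the 35 ligands 7 rose and 17 fell from DD10 to DD23, and of the 32 receptors 9 rose and 8 fell. As shares of the 67, the calls came to 55.2% by DD16, 37.3% at the second step and 61.2% over the whole interval; the last is near the background, with fewer rises (23.9%) and more falls (37.3%) than over all genes. Whether the set differs from other genes was not tested.

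Marker levels moved over the same days. The summed level of the 13 photoreceptor markers measured, on the log2 scale, ran from 5.09 to 5.46 at DD10 (6 or 7 well above background), 6.66 to 6.80 at DD16 (10 or 11) and 8.35 to 8.64 at DD23 (13). That of 8 markers of dividing cells went from 6.61 to 6.95, then 6.03 to 6.20, then 4.11 to 5.12, all 8 well above background throughout. For 17 ganglion cell markers it was 6.30 to 6.91, 6.97 to 7.22 and 5.74 to 6.48, with 16 or 17 well above background. From DD16 to DD23, 4 of these 17 rose, among them Nefh (2.54) and Thy1 (2.23), and 9 fell. The largest of these falls were those of Atoh7 (-4.53) and Pou4f2 (-2.84). Over all genes 19.3% rose and 22% fell then. Forebrain markers (8 measured) summed to 4.27 to 5.30 at DD10, 2.98 to 3.43 at DD16 and 1.36 to 2.05 at DD23, with 6 to 8 well above background. By DD16, 2 of the 8, Dlx1 (1.35) and Dlx2 (1.28), rose and 4 fell, among them Emx1 (-2.93) and Emx2 (-2.33). Over all genes 21.9% rose and 18.9% fell by DD16. Retinal progenitor markers (12, all well above background) summed to 6.88 to 7.72, 8.20 to 8.34 and 7.43 to 7.79, and 9 pigment epithelium markers to 5.96 to 6.14, 5.60 to 6.12 and 5.85 to 7.06. Each sum follows its brightest markers and can differ from the course of single genes. From DD10 to DD23, 2 progenitor markers rose and 7 fell, with a median difference of -0.81. Of the pigment epithelium markers 2 rose and 5 fell, with a median of -0.79. Over all genes 31.5% rose and 29.2% fell. The part of these shifts in the changes of guidance genes was not tested.

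Eph receptors held the largest rise and several of the largest falls. Epha8, an EphA receptor kinase, stood at -0.28 in WT, 0.19 in B4KO and -0.52 in Isl1KO at DD10, at 3.66, 3.75 and 3.46 in the same order at DD16, and at 4.88, 5.47 and 5.32 at DD23. Each line rose at both steps and no 2 days overlapped. The fitted rise was 3.82 by DD16 (SE 0.16, 14.1-fold, adjusted p = 0.000173) and a further 1.60 by DD23 (SE 0.16, adjusted p = 0.00154). Over the whole interval it came to 5.42, or 42.9-fold (adjusted p = 1.67e-05). Its probe lies at chr4:136485335-136485394 (mm9), and no other Epha8 probe was in use.

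Epha10, a receptor whose kinase domain lacks activity, read -3.90, -3.54 and -4.35 at DD10, -2.27, -2.11 and -2.17 at DD16, and -1.46, -1.37 and -1.53 at DD23. It rose by 1.75 (SE 0.15, adjusted p = 0.000992) and then by 0.73 (adjusted p = 0.0121), and days did not overlap. A second Epha10 probe gave 0.65 and -0.05 for these steps. Epha2, a receptor best known from epithelia and lens, was highest at DD16 in every line, going from -0.17, 0.51 and 0.15 to 1.50, 1.56 and 1.40 and back to 0.03, 0.89 and 0.52. The rise of 1.32 (SE 0.16, adjusted p = 0.00244) was followed by a change of -1.01 (SE 0.16, adjusted p = 0.005). Epha3 (0.73) and Ephb2 (0.35) also rose to DD16, and Ephb2 fell after it (-0.55).

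Epha4, which binds ephrins of both classes, went the other way. It read 2.34, 2.05 and 1.94 at DD10, -0.19, -0.04 and -0.46 at DD16, and -0.68, -0.51 and -0.67 at DD23. All DD10 values lay above all later ones, with a difference of -2.34 by DD16 (SE 0.12, adjusted p = 0.000256) and -2.73 by DD23 (6.64-fold lower, adjusted p = 4.11e-05). Epha7, a receptor of the same subfamily, went from 0.19, -0.48 and -0.45 to -1.77, -1.68 and -1.98 and then -2.30, -1.94 and -2.60. Its difference was -1.56 at the first step (SE 0.19, adjusted p = 0.00272) and -2.04 over the whole interval.

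Ephb4, the receptor of ephrin-B2, fell at both steps, from 0.60, 1.25 and 0.89 to -0.36, -0.07 and -0.54 and then to -1.93, -1.26 and -2.10. The fitted differences were -1.24 and -1.44 (SE 0.13 each), and -2.68 in all (6.39-fold lower, adjusted p = 5.29e-05). A second of its probes gave -2.69 over the whole interval and the remaining one -0.28. Over all genes 31.5% rose and 29.2% fell from DD10 to DD23. Among the 14 Eph receptors measured, 2 rose and 4 fell over these days, and 8 did not pass. The fourth to fall was Epha6 (-0.59), which was well above background on 4 arrays.

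Ephrins, the ligands of these receptors, fell in 6 of 8 cases from DD10 to DD23 and rose in none, with a median of -0.54; over all genes 29.2% fell and 31.5% rose, and the family as a whole was not tested. Efna5, an ephrin-A that patterns ganglion cell projections, read 3.30, 3.78 and 3.73 at DD10, 2.62, 2.76 and 2.79 at DD16 and 1.70, 1.86 and 1.47 at DD23. Days did not overlap, and both steps passed (-0.88 and -1.04, SE 0.14 each); its 2 other probes went the same way. Efna4 went from -0.42, -0.26 and -0.10 to -1.49, -1.28 and -1.51 and to -2.37, -1.66 and -2.70, a difference of -1.98 in all (SE 0.22, adjusted p = 0.000552). Efnb2, the transmembrane ligand of Ephb4, peaked at DD16. It read 3.86, 4.86 and 4.03, then 4.82, 5.26 and 4.67, then 3.00, 3.84 and 2.73. Its rise of 0.67 was followed by a change of -1.72 (SE 0.14, 3.30-fold lower, adjusted p = 0.000914). Efnb1 (-0.55), Efnb3 (-0.53) and Efna2 (-0.47) were the other ephrins to fall over the whole interval. Efna1 and Efna3 did not pass (-0.13 and 0.12).

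**Figure D2:**
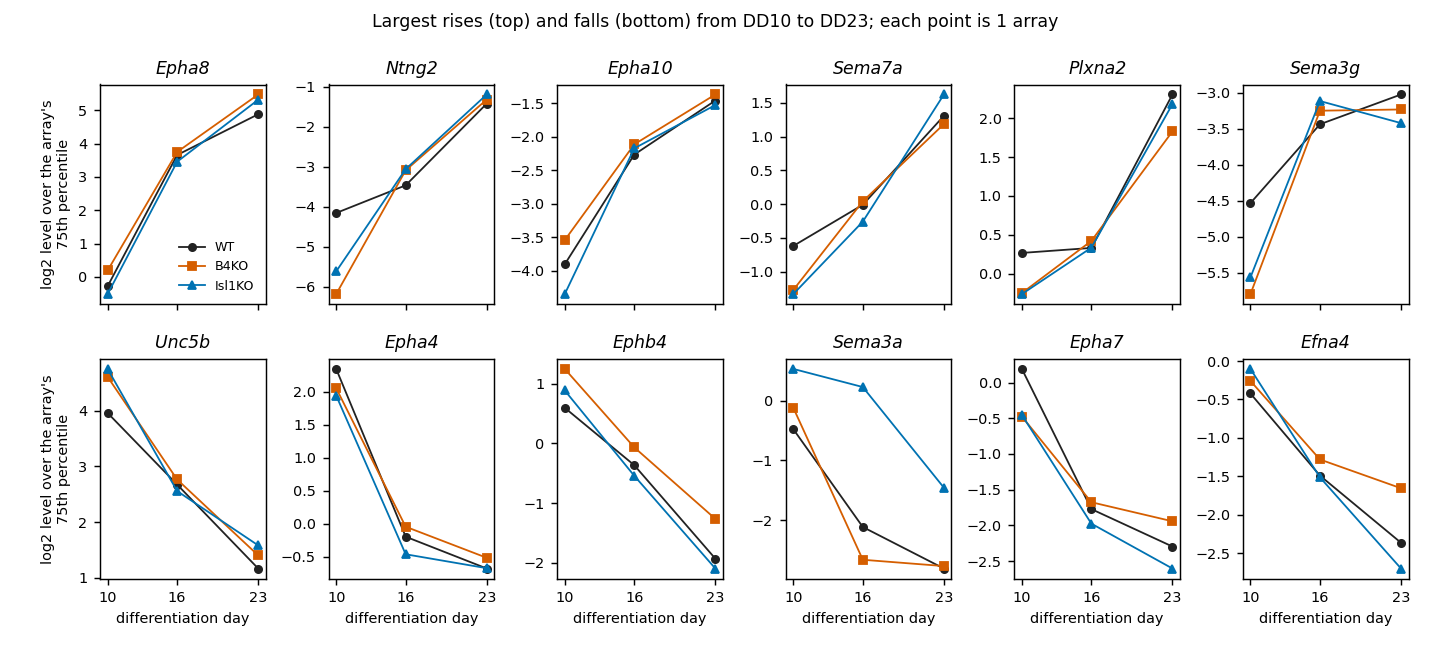
Log2 level over the array's 75th percentile against differentiation day for the 6 largest rises (top) and 6 largest falls (bottom) from DD10 to DD23; each point is 1 array, joined within WT (black circles), B4KO (orange squares) and Isl1KO (blue triangles). The line courses of Epha8, Unc5b and Epha4 lie close together. Sema3a is apart in Isl1KO at DD16 (0.23 against -2.11 and -2.66). Ntng2 and Sema3g read higher in WT at DD10, where Ntng2 was well above background in WT alone and Sema3g on no array.

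Class 3 semaphorins, the secreted members of the family, fell in 3 of 7 cases and rose in 1 between DD10 and DD16, and 0 passed after that in either direction (limma), although 1 of the 7, Sema3d, had an unadjusted p under 0.05 then. Over all genes 18.9% fell and 21.9% rose by DD16, and 22% fell and 19.3% rose after it. Sema3c, which signals through neuropilins, read -0.89, -1.80 and -1.70 at DD10, -2.89, -2.94 and -3.09 at DD16 and -2.52, -3.11 and -3.79 at DD23. The DD10 values lay above all others, and the difference by DD16 was -1.51 (SE 0.22, adjusted p = 0.00467). Sema3a, the classical repellent that acts through Nrp1, fell by 2.33 from DD10 to DD23 (SE 0.39, adjusted p = 0.00311). Its first step of -1.50 (adjusted p = 0.0274) was not called when either DD10 or DD16 of WT or of B4KO was left out (adjusted p up to 0.0913), nor within the slide of WT and Isl1KO (-0.97, adjusted p = 0.119). Sema3d fell with it (-1.14 by DD16), while being well above background on only 5 arrays.

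Sema3g, which binds Nrp2, was the exception, reading -4.54, -5.80 and -5.57 at DD10, where it was not well above background on any array. At DD16 it read -3.44, -3.25 and -3.12 and at DD23 -3.03, -3.24 and -3.42, so it was at least 3.03-fold higher at DD16 (adjusted p = 0.00405) and at least 3.11-fold higher at DD23 than at DD10. Each such bound raises a dim value to the lowest signal well above background on its array. Because Sema3g entered the set only through the later days, it had to differ.

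Membrane-bound semaphorins moved in both directions. Sema7a, which is anchored to the membrane by lipid and binds Plxnc1 and integrins, read -0.62, -1.27 and -1.33 at DD10, -0.01, 0.04 and -0.26 at DD16 and 1.31, 1.19 and 1.63 at DD23. Every line rose at each step and days did not overlap. The first step passed (adjusted p = 0.0136), the second was 1.45 (SE 0.21, adjusted p = 0.00401), and the rise was 5.46-fold in all (adjusted p = 0.000238). Sema4f dipped at DD16, reading -2.53, -2.69 and -2.41, then -4.05, -3.61 and -3.77, then -2.84, -3.03 and -3.24. The differences were -1.27 (SE 0.17, adjusted p = 0.00325) and 0.77 (adjusted p = 0.0139). Of the 13 semaphorins of classes 4 to 7, 4 rose and 5 fell from DD10 to DD23, where 31.5% of all genes rose and 29.2% fell. Sema6a, a plexin-A ligand that layers the inner retina, fell (-1.22), as did Sema4b (-0.81), Sema6c (-0.71), Sema5b (-0.65) and Sema4f (-0.50). Sema6b (0.80), Sema4a (0.44) and Sema5a (0.34) rose with Sema7a. Sema5a rests on its probe, since its 5 others gave -0.50 to -1.22 over the same days.

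Among the receptors of semaphorins, Plxna2, a partner of Sema6a, rose late. It read 0.27, -0.24 and -0.26 at DD10, 0.33, 0.42 and 0.34 at DD16, and 2.30, 1.83 and 2.18 at DD23. The second step alone passed, at 1.74 (SE 0.15, 3.33-fold, adjusted p = 0.00104), and the 2 other probes also rose between these days. Plxnd1, the receptor of Sema3e, read 1.92, 1.13 and 0.90, then 2.18, 2.19 and 2.02, then 2.70, 3.11 and 3.08. It rose by 0.83 in the second step (SE 0.26, adjusted p = 0.0472), a call that ended in 7 of 9 fits with 1 array left out (all but those without WT DD10 or WT DD23) and within the slide of WT and Isl1KO (adjusted p = 0.17), and by 1.65 in all (adjusted p = 0.00246). Nrp1, which pairs with plexins to bind Sema3a, rose at each step (1.01 and 0.71), from 0.74, -0.23 and 0.09 to 1.49, 1.04 and 1.08 and 2.20, 1.66 and 1.90; all 6 of its probes had positive values at each step. Plxnc1 rose to DD16 (1.22) and was higher at DD23 than at DD10 by 1.04. Plxna3 (-0.61) and Plxnb1 (-0.59) fell over the whole interval. Nrp2, Plxna1, Plxna4, Plxnb2 and Plxnb3 had values from -0.19 to 0.65 there and did not pass.

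Of the netrin system, Unc5b, a repulsive netrin receptor also known from blood vessels, had the largest fall of the set. It read 3.96, 4.61 and 4.76 at DD10, 2.67, 2.77 and 2.56 at DD16 and 1.16, 1.40 and 1.58 at DD23. Days did not overlap, with differences of -1.78 and -1.28 (SE 0.17 each) and -3.06 in all, or 8.35-fold (adjusted p = 7.24e-05). Its other probe fell alike at both steps. Unc5a, which is found mainly in neurons, rose from -0.21, 0.08 and -0.76 to 1.22, 1.40 and 1.28 at DD16 and stood at 1.37, 1.40 and 1.68 at DD23. The first step was 1.59 (SE 0.21, adjusted p = 0.00319) and the second did not pass (0.19). Unc5c fell (-0.81 by DD16).

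Ntng2, a netrin-G that binds synaptic adhesion proteins and not Dcc, had the second largest rise. It read -4.16, -6.19 and -5.62 at DD10, where it was well above background in WT alone, then -3.46, -3.09 and -3.06, then -1.42, -1.32 and -1.19. The fitted rise over the whole interval was 4.01 (SE 0.47, adjusted p = 0.000703), and 3.44 with dim values raised to the lowest signal well above background on their array. Like Sema3g, it met the background filter through the later days, where it is high. Neither single step (2.12 and 1.90) held in each fit with 1 array left out (call ended in 3 and 4 of 9, adjusted p up to 0.083), and neither passed within the slide of WT and Isl1KO. The first ended without B4KO DD16, Isl1KO DD10 or Isl1KO DD16, the second without B4KO DD23, Isl1KO DD16, Isl1KO DD23 or WT DD16. Ntn4, a laminin-like netrin, read -3.46, -3.67 and -3.89, then -3.61, -3.65 and -3.48, then -4.79, -4.59 and -4.61, falling at the second step (-1.08, SE 0.13, adjusted p = 0.00258). Ntn3 fell to DD16 (-0.43) and rose after it (0.34), and Ntng1 did not pass (0.75 over the whole interval).

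Dcc, the netrin receptor that mediates attraction, cannot be read from its brightest probe with certainty. That probe is named Dcc on the array, but its design coordinates lie on chromosome 7 (chr7:68417162-68417221, mm9), whereas the gene lies on chromosome 18 in the RefSeq table. For the other 66 genes the probe and the gene were on the same chromosome. The brightest probe read 5.59, 5.80 and 5.31 at DD10, 5.36, 5.66 and 5.06 at DD16 and 6.57, 6.36 and 6.19 at DD23, a rise of 1.01 at the second step (SE 0.12, adjusted p = 0.0021). The brightest of the 5 probes on chromosome 18 instead read 0.16, -0.45 and -0.55, then -0.85, -1.25 and -0.31, then -1.60, -1.85 and -1.51. In the same fit it fell by 0.84 at that step (SE 0.24, adjusted p = 0.0326) and by 1.37 from DD10 to DD23 (adjusted p = 0.00341). All 5 probes on chromosome 18 had negative values over the whole interval, from -0.99 to -1.81. With that probe the counts of rises and falls from DD10 to DD23 were 15 and 26.

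**Figure D3:**
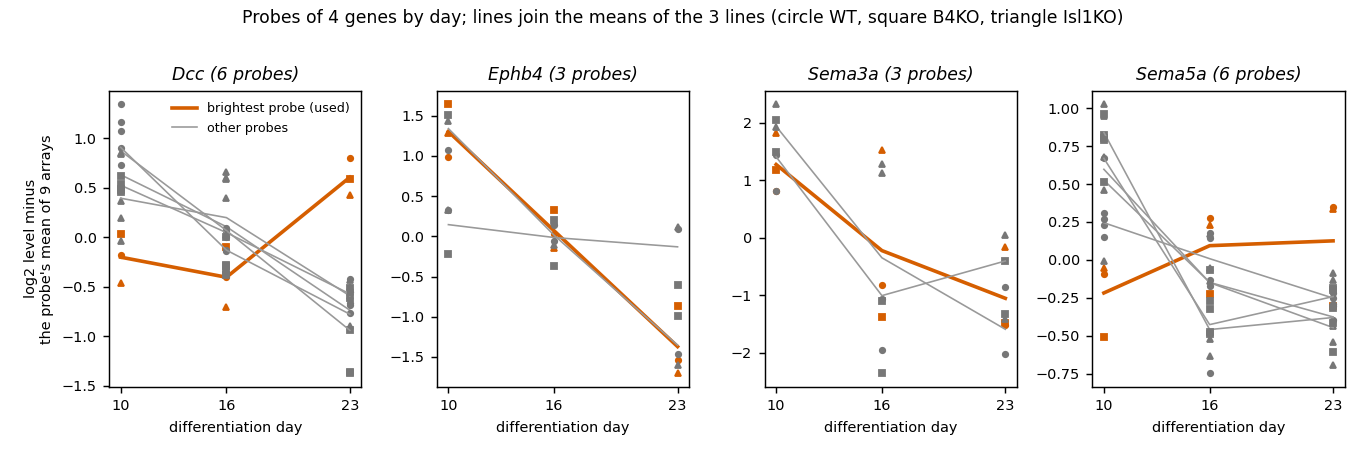
Log2 level minus the probe's own mean over the 9 arrays, by day, for every probe of Dcc, Ephb4, Sema3a and Sema5a that passed the background filter; the brightest is orange and the others grey, points are single arrays and lines join the means of the 3 lines. The brightest Dcc probe ends high while the 5 others end low; in Ephb4 1 of 3 probes is nearly flat; in Sema5a the brightest differs from the 5 others.

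Slits and their receptors split by gene. Slit1 rose by DD16 (0.96, adjusted p = 0.0026) and was 1.05 higher at DD23 than at DD10. It read 1.01, 0.78 and 0.54 at DD10, 1.80, 1.74 and 1.68 at DD16 and 1.81, 2.06 and 1.61 at DD23, so the later days overlapped each other and not the first. Slit2 fell at both steps, reading 2.18, 2.31 and 2.14, then 0.98, 1.11 and 1.07, then 0.60, 0.62 and 0.61, with -1.60 in all (adjusted p = 4.43e-05). Slit3 fell over the whole interval (-1.39, adjusted p = 0.0207). Robo1 fell (-0.83) and then rose (0.69), Robo2 was higher at DD23 by 0.77, and Robo3, which controls midline crossing, did not pass (-1.45, SE 0.55).

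**Figure D4:**
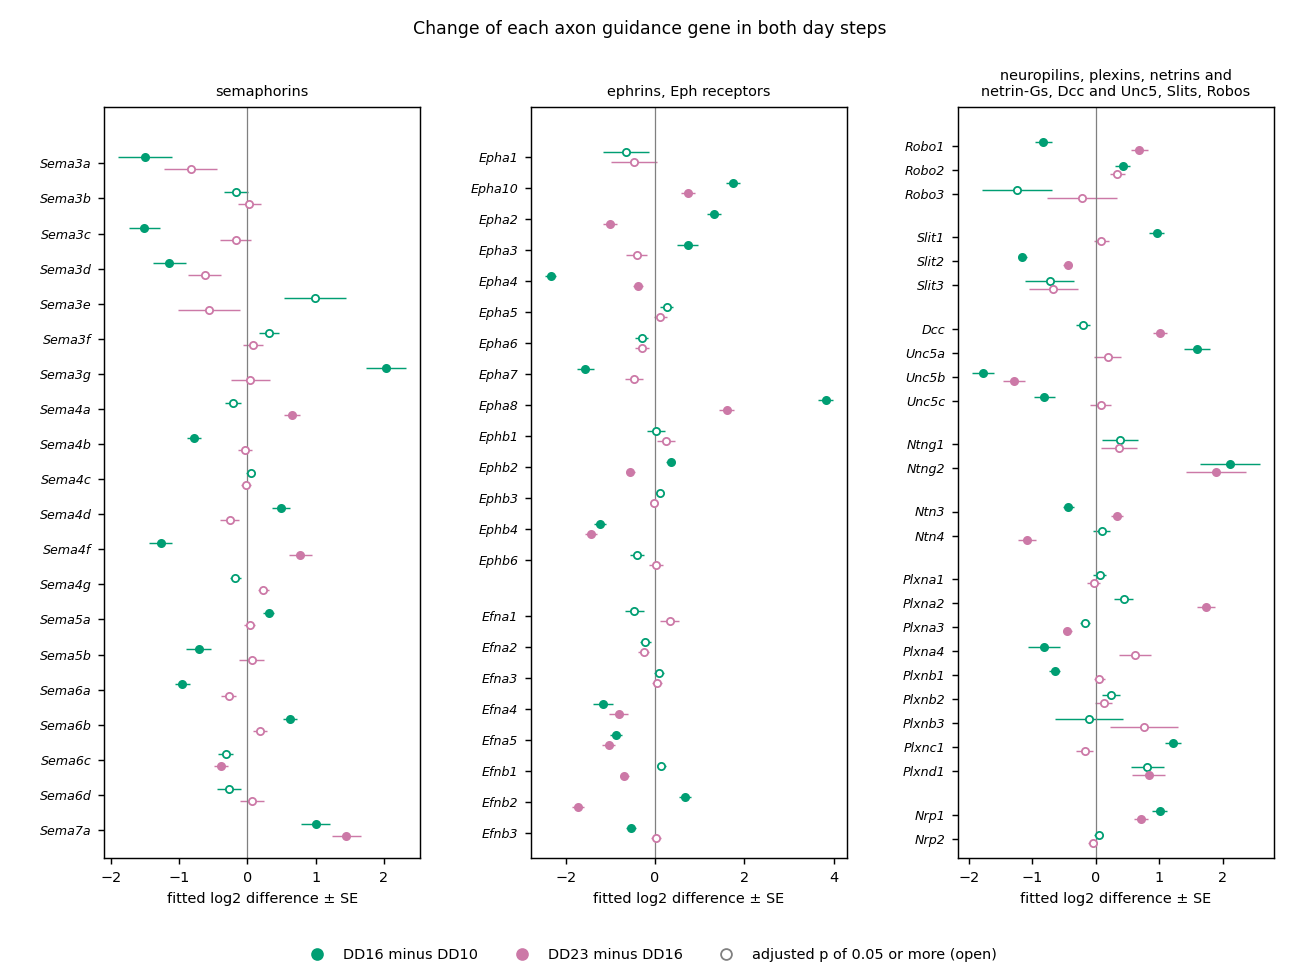
Fitted log2 difference with its SE (horizontal bars) for each guidance gene, from DD10 to DD16 (green) and from DD16 to DD23 (pink); filled points have an adjusted p under 0.05. Epha8, Epha10, Sema7a, Ntng2 and Nrp1 lie right of 0 with filled points at both steps and Ephb4, Unc5b, Efna5, Efna4, Epha4 and Slit2 left of it.

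The fits with 1 array left out bear unevenly on these day results. All 12 named differences from DD10 to DD23 (the 6 largest rises and falls) passed in each such fit, and under the other settings that tested them. Ntng2 and Sema3g had no test with the filter of well above background on all 9 arrays. Since both met the background filter through the later days, their passing adds no support. Of the 12 named at each single step, 10 passed in each such fit, the exceptions being Ntng2 at both steps, Sema3a at the first and Plxnd1 at the second. The count of rises by DD16 dropped from 17 to 10 without the Isl1KO array of DD16, and to 11 without that of DD10 or the B4KO array of DD16.

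Genes that act with these ligands and receptors were taken from 3 further lists. Over all genes, 31.5% rose and 29.2% fell from DD10 to DD23. Of 49 cytoplasmic effectors, 13 rose and 20 fell, with a median of -0.06. Ablim3, which binds actin, rose most (2.70), and the adaptor Nck2 (-1.76) and the exchange factor subunit Dock1 (-1.73) fell most. Single steps added rises of Pak3 by DD16 (1.11) and of Farp2, a plexin-A partner, by DD23 (1.85), and a fall of the kinase Fes by DD16 (-1.51). Of 44 other guidance and adhesion molecules, 16 rose and 16 fell (median 0.18). Omg, a myelin-associated ligand, rose by 4.54 and the contactin Cntn1 by 3.20, while Flrt3 and Flrt2, which bind Unc5 receptors, fell (-2.88 and -2.80). Cntn2, an adhesion molecule of early projecting axons, fell after DD16 (-2.21), as did Flrt1 (-1.70), and Dscaml1 rose then (1.54); Met had risen by DD16 (1.77). Of 20 measured factors of the eye's axes, which set the graded expression of ephrins and Eph receptors in the embryo, 0 rose and 13 fell from DD10 to DD23 (median -1.40). The retinoic acid enzymes Aldh1a3 (-4.92) and Aldh1a1 (-3.53) fell most, and Bmp4 fell by DD16 (-2.30). Cyp26a1, which degrades retinoic acid, rose by 2.35 at DD16 and fell after it (-3.96).

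Whether loss of Bhlhb4 went with other levels of guidance genes was asked by comparing B4KO with WT over the 3 days. In this comparison 9 guidance genes passed, 2 higher and 7 lower in B4KO, where 22.2% of all genes did (4.05% higher and 18.1% lower). B4KO is also the line on the slide of its own. Efnb2 was higher in B4KO on each day (4.86, 5.26 and 3.84 against 3.86, 4.82 and 3.00 in WT), by 0.76 (SE 0.14, 1.70-fold, adjusted p = 0.0112). Its receptor Ephb4 was higher by 0.54 (SE 0.13, adjusted p = 0.0323), with 1.25, -0.07 and -1.26 against 0.60, -0.36 and -1.93. The other Ephb4 probes gave 0.39 and -0.58.

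Lower in B4KO was Sema4a, a semaphorin that photoreceptors need in mice, at -0.27, -0.40 and 0.26 against 0.60, 0.11 and 0.99 in WT (difference -0.70, SE 0.11, adjusted p = 0.00759). Nrp1 differed by -0.65 (SE 0.12, adjusted p = 0.0109), each day reading less than WT, with values from -0.05 to -0.93 for the 5 remaining probes. Epha6 read -5.52, -5.56 and -5.69 in B4KO, where it was not well above background on any array, against -3.92, -4.51 and -4.90 in WT, where 1 of 3 arrays measured it. The fit called it lower (adjusted p = 0.00335), but with dim values raised to the lowest measured signal it did not (adjusted p = 0.224), so no fold is given.

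Smaller differences were read for Sema5a (2.62, 2.90 and 2.82 against 3.03, 3.40 and 3.48; -0.52, SE 0.08, adjusted p = 0.00511) and Sema4c (5.37, 5.33 and 5.33 against 5.70, 5.84 and 5.75; -0.42, SE 0.07, adjusted p = 0.00856). Sema4g (0.51, 0.36 and 0.53 against 0.87, 0.56 and 0.86) differed by -0.30 (SE 0.08, adjusted p = 0.0409), and Nrp2 by -0.26. The other probes do not read alike here. Those of Sema5a gave -0.08 to 0.27, those of Sema4c 0.19 and 0.11, and that of Sema4g 0.17, against -0.36 and -0.68 for Nrp2. Of the 7 passing genes with further probes, 2 had all of them on the same side, whereas 19 of 21 did so from DD10 to DD23. With the mean of all probes, 4 guidance genes passed. Without the B4KO array of DD23 the count was 5, and Sema4g was called in 1 of 9 fits with an array left out, Ephb4 in 3 and Efnb2 in 7 (not without B4KO DD10 or DD23).

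**Figure D5:**
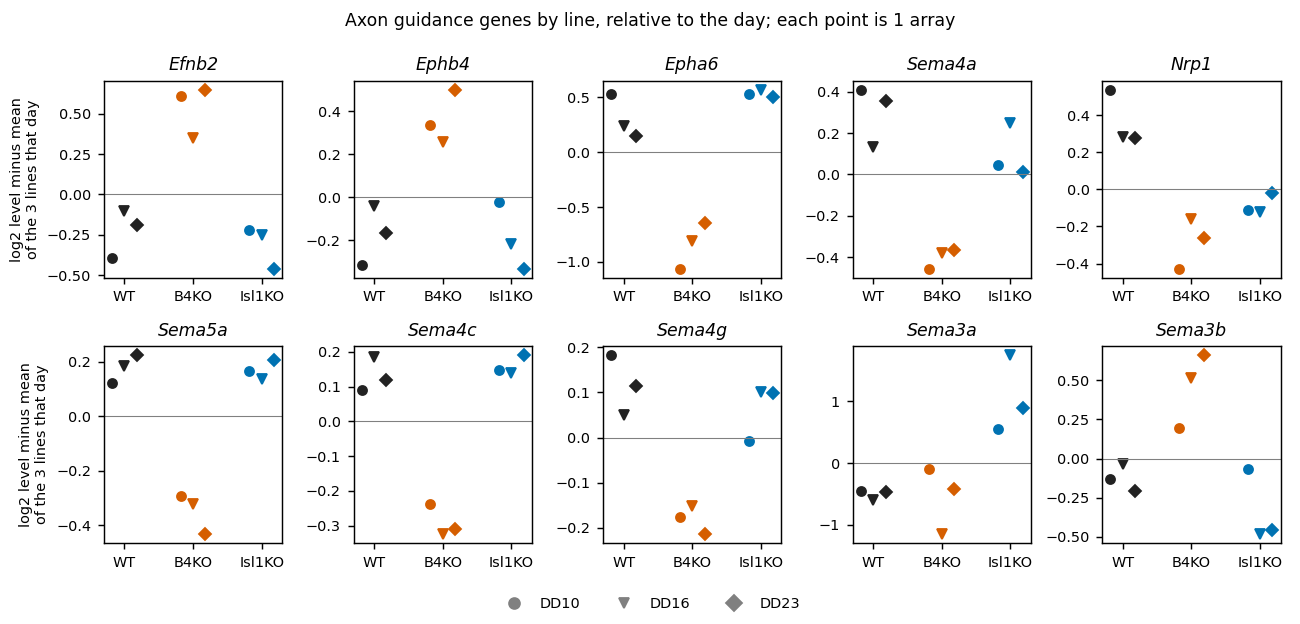
Log2 level minus the mean of the 3 lines on the same day, for genes that differed between lines; each point is 1 array, by line on the horizontal axis and by day as circle (DD10), triangle (DD16) and diamond (DD23). B4KO points lie apart on every day for Efnb2, Epha6, Sema5a and Sema4c, and Isl1KO points lie above the others for Sema3a.

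In Isl1KO against WT, 0 guidance genes passed by limma, and 0.00427% of all genes (1 gene) did. At an unadjusted p under 0.05, 6 of the 67 were found, against 1907 of the 23428 genes, so no change was shown by this fit. Both lines lie on 1 slide, and 0 also passed by limma in the fit of those 6 arrays alone. Sema3a had the largest difference. It read 0.53, 0.23 and -1.46 in Isl1KO at DD10, DD16 and DD23, against -0.48, -2.11 and -2.81 in WT and -0.12, -2.66 and -2.77 in B4KO. Isl1KO was the highest line on each day, by 1.57 over WT (SE 0.39, adjusted p = 0.451). All 3 Sema3a probes had Isl1KO above both other lines at DD16, the others at -1.45 against -3.64 and -3.67 and at -3.20 against -6.43 and -6.84, the last 2 being dim values. At DD23 the second probe did not, with -3.99 in Isl1KO against -3.90 in B4KO and -4.60 in WT. The next largest with 1 sign on all days were lower in Isl1KO and did not pass either. They were Robo3 (-0.24, -1.95 and -0.80 against 0.44, -0.07 and -0.33; -1.01, adjusted p = 0.681) and Sema3c (-1.70, -3.09 and -3.79 against -0.89, -2.89 and -2.52; -0.76, adjusted p = 0.505). Ntng1 (-0.85, -0.68 and -0.42 against -0.14, -0.37 and 0.68) gave -0.71 (adjusted p = 0.608) and Plxna4 (-0.69, -1.35 and -0.62 against 0.45, -1.14 and -0.14) gave -0.61 (adjusted p = 0.618).

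Isl1KO was also compared with B4KO, which lie on different slides. Here 11 guidance genes passed, 7 higher and 4 lower in Isl1KO, where 22% of all genes did (18.1% higher and 3.86% lower). Sema3a was higher in Isl1KO by 1.62 (SE 0.39, adjusted p = 0.0322), a call lost in 6 of 9 fits with an array left out (adjusted p up to 0.087). It held without B4KO DD10, Isl1KO DD10 or Isl1KO DD16. Sema3b, a secreted repellent, was lower on each day, at -0.79, -1.38 and -1.32 against -0.53, -0.38 and -0.21, by -0.79 (SE 0.17, adjusted p = 0.0234), and was lost in 4 such fits, those without either line's DD16 or DD23. Ephb3, an ephrin-B receptor, read 4.64, 4.65 and 4.70 against 4.28, 4.40 and 4.40 (0.30, SE 0.07, adjusted p = 0.0343), and was called in 1 such fit.

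Epha6 read -3.92, -4.18 and -4.55 in Isl1KO, well above background on all 3 arrays, and was at least 1.41-fold higher there than in B4KO (adjusted p = 0.00165), where it was not well above background on any array. It entered the set mainly through Isl1KO, where it is high, so this difference supports nothing, and with dim values at the lowest measured signal it was not called (adjusted p = 0.133). The remaining calls are of genes already given in B4KO against WT, a comparison that shares the B4KO arrays. They were Efnb2 (-0.84, adjusted p = 0.0073), Ephb4 (-0.56, adjusted p = 0.0283), Sema5a (0.52, adjusted p = 0.00518), Sema4c (0.45, adjusted p = 0.00659), Sema4a (0.50, adjusted p = 0.0252) and Nrp2 (0.28). Dcc also passed with its brightest probe (-0.42, adjusted p = 0.0486), and with the probe on chromosome 18 it did not (0.40, adjusted p = 0.287). Losses were frequent here too. Ephb4 and Sema4a were each not called in 6 of 9 fits with 1 array left out and Dcc in 8 (adjusted p up to 0.176). Ephb4 held without WT DD10, WT DD16 or Isl1KO DD10, Sema4a without any 1 WT array and Dcc without B4KO DD23. With the mean of all probes, Sema5a came to 0.06 (adjusted p = 0.773) and Sema4c to 0.17 (adjusted p = 0.261). The count ranged from 4 to 9 over the fits with 1 array left out, being 4 without B4KO DD16 or Isl1KO DD23, 5 without B4KO DD23 or Isl1KO DD16, 6 without WT DD23 and 7 without Isl1KO DD10.

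The related lists were also compared between lines; in B4KO against WT, 4.05% of all genes were higher and 18.1% lower. Of the 49 effectors, 2 were higher and 2 lower in B4KO than in WT, Tiam1 (0.35) and Abl1 (0.30) against the actin-regulating kinase Limk1 (-1.54) and the Robo partner Srgap2 (-0.78). Of the 44 other guidance molecules, 2 were higher (Gfra1, 0.46, and Neo1, 0.31, a netrin receptor related to Dcc) and 4 lower, led by Mag (-1.48) and Lrig2 (-0.95). Pax2, a factor of the optic stalk, was the 1 eye axis gene lower in B4KO than in WT (-1.70). In Isl1KO against B4KO, 18.1% of all genes were higher and 3.86% lower. Of the 20 eye axis factors measured, 3 were higher and 1 lower in Isl1KO than in B4KO. Pax2 (2.23) and the ventral factor Vax2 (1.54) were among the higher ones, and Nr2f2 was the lower one (-0.42). In Isl1KO against B4KO the passing effectors were Limk1 (1.50), Srgap2 (0.83) and Fyn (-0.38), and Mag (1.54), Lrig2 (0.98), Cntn2 (-0.67) and Gfra1 (-0.46) led the other guidance molecules. Against WT, 0 genes of the 3 lists passed in Isl1KO by limma. Of 8 bipolar markers measured, 0 were higher and 1 lower in B4KO than in WT. In Isl1KO against WT 0 of the 8 passed by limma, where 0.00427% of all genes did. Of 17 ganglion cell markers, 1 was higher and 4 lower in Isl1KO than in B4KO, with a median of -0.41. The part of cell types in the line differences was not tested.

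Whether a knockout's difference from WT at DD23 departed from that of the earlier days was tested with 2 residual degrees of freedom. For both knockouts 0 guidance genes passed by limma, as did 0% of all genes. At an unadjusted p under 0.05, 5 guidance genes were found for B4KO and 1 for Isl1KO, against 1416 and 1156 of the 23428 genes. The largest departures were 2.22 for Plxnb3 and -1.74 for Robo3 in B4KO, and -1.26 for Sema3e in Isl1KO.

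WT was also set against the mean of both knockouts on single days, a comparison added after the values were seen and with no test, since it sets single arrays against each other. At DD10, 18 of the 67 guidance genes were at least 1.5-fold higher in WT than in the mean of both knockouts and 4 at least 1.5-fold lower, where 12.7% and 3.58% of all genes were. At DD16 these numbers were 2 and 1 (6.9% and 2.57% of all genes), and at DD23 they were 6 and 3 (11.9% and 1.79%). Of the 22 at DD10, 4 were not well above background on all 3 arrays, and the 1 lower at DD16, Sema3a, had WT between the knockouts. Among the 63 guidance genes measured on every array of the day, WT was at least 1.5-fold above both knockouts for 12 at DD10, 2 at DD16 and 3 at DD23, where 3.77%, 0.717% and 2.13% of all measured genes were. It was at least 1.5-fold below both for 2, 0 and 0 (1.37%, 0.118% and 0.37% of all). Plxna4, a plexin-A receptor, read 0.45 in WT against -1.04 in B4KO and -0.69 in Isl1KO at DD10. Slit3 read -0.67 against -1.72 and -1.86, Epha3 -0.63 against -1.78 and -1.59, and Ephb1 0.39 against -0.69 and -0.28, while Unc5b was lower in WT (3.96 against 4.61 and 4.76). On the same array, 8 forebrain markers had a summed log2 level of 5.30 against 4.27 and 4.41, all 8 well above background in each line. Their median level went the other way, at 0.09 against 0.51 and 0.38. The 12 retinal progenitor markers had a summed level of 6.88 against 7.72 and 7.48, again all 12 measured, and a median level of 2.98 against 4.02 and 3.83. Their part in these differences was not tested. Without the WT array of DD10, 36 guidance genes passed from DD10 to DD16, 43 from DD10 to DD23 and 6 between B4KO and WT.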

How the data were processed

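Total RNA of 9 retinal organoid samples was measured on 1-colour Agilent arrays, 1 sample per line and day. Per the file headers, the deposited intensity values are processed signals from Agilent Feature Extraction 12.0.3.1; the value table deposited by the authors holds linear ratios (each array's intensity divided by a constant) and served, after log2, as an alternative. No columns of other samples were found (0). Of 56605 gene probes, 102 with outlier flags were left out. Each intensity was divided by the array's 75th percentile and log2 transformed; folds were computed from these values. A gene was read from its brightest probe among those well above background on at least 3 arrays. limma 3.58.1 in R 4.3.3 fitted line and day as additive terms over all 9 arrays (4 residual and 2.00 prior degrees of freedom), with Benjamini-Hochberg adjustment over 23428 genes; a second model with 2 residual degrees of freedom added the departure of a knockout at DD23. The number of arrays limits the precision, and p-values set each line or day difference against the departure from additivity between single samples.

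On simulated data for DD16 against DD10 (23428 genes, 200 of them changed), 69% of changes of 1 log2 unit and 89.5% of changes of 2 were recovered, with 6 false calls. On the measured arrays, 40.8% of all genes passed for this comparison. Recovery and false calls with so large a share of genes changed were not tested. The genes given with every array were, per comparison, the 6 largest rises and 6 largest falls past the threshold, or where fewer than 3 passed, the 5 largest differences with 1 sign on all days; of each related list, the 2 largest rises and falls, of which 1 is not reported here. Other genes given with every array (among them Nrp1, Slit1 and Slit2 by day, and those of single days) were chosen after their values were seen. Members and lists were chosen with earlier results of these data known. Alternatives were quantile normalization, normexp background (offset 50), other background filters, the mean of all probes, the deposited table, a floor for dim values, a trended robust prior, the slide of WT and Isl1KO alone, and each array left out. Names are those of the array design, and 63 of the 67 probes matched a RefSeq accession. Promoter sequences and gene chromosomes are from RefSeq, GRCm38.p6, and probe coordinates are the array design's, mm9.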

Additional observations from a re-analysis of the deposited data

Results flagged for a closer look

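Ntn1, the netrin for which the family is known, did not enter the comparisons because its probe was well above background on only 2 of the 9 arrays. These were the Isl1KO arrays of DD16, at a log2 level of -3.68, and of DD23, at -4.86. It was not well above background on any WT array, where it read -4.73, -4.34 and -4.68 at DD10, DD16 and DD23. These WT levels, and that of B4KO at DD16 (-4.25), lie above the Isl1KO level of DD23. The lowest signal well above background was -4.52, -4.21 and -4.98 on the WT arrays, and -5.15 and -5.40 on those 2 Isl1KO arrays. With 1 array per line and day the difference in detection was not tested.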

How the results depend on the processing

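With 1 array left out in turn, the number of guidance genes past the threshold ranged from 27 to 36 for DD16 against DD10, from 19 to 29 for DD23 against DD16, from 37 to 43 for DD23 against DD10, from 5 to 11 for B4KO against WT, from 4 to 9 for Isl1KO against B4KO, and stayed at 0 for Isl1KO against WT and for both departures at DD23. With the mean of all probes, 4 passed for B4KO against WT and 6 for Isl1KO against B4KO, and a trended robust prior gave 16 for B4KO against WT. Dcc reversed with the mean of all probes (-0.48 for DD23 against DD16 and 0.21 for Isl1KO against B4KO) and with its brightest probe on chromosome 18 (-0.84 and 0.40), an alternative chosen after seeing the data. The call of Epha6 ended when dim values were set at the lowest measured signal (adjusted p = 0.224 against WT and 0.133 against Isl1KO, limma). Over all named genes, 12 of 12 calls for DD23 against DD10, 10 of 12 for DD16 against DD10, 9 of 12 for DD23 against DD16, 1 of 8 for B4KO against WT and 1 of 10 for Isl1KO against B4KO passed under all settings that tested them. Genes dim on some arrays were not tested with the filter of well above background on all 9 arrays. No scaling moved the median of all genes by over 0.1. No paired analysis was possible because every line and day has a single replicate number, so no replicate block could be added to the line and day terms, which already match lines by day. The cause of these shifts was not tested, except that a probe mean brings in other probes of the gene. Values of genes not well above background are uncertain, and a bound is given only where a whole group was dim.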
